A study of Mus musculus with 12 samples.

Results

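The regions described here are short stretches of acetylated chromatin that lie where neighbouring genes meet. They were selected from the peak positions of 6 H3K9/14ac libraries: peaks that overlapped or touched in any library were joined into 56643 union regions, and a region was kept if it was under 8000 bp wide, held a peak in all 6 libraries and came within 2 kb of the ends of at least 2 different protein-coding genes (GRCm38). This left 2362 of the 56643 regions. Of the 18887 regions that met the width and sharing limits, 7116 lay near the ends of 1 gene only and 9409 had no gene end within 2 kb. These were used for comparison. Presence in every library and width were therefore fixed by the choice, and the other values below are described on regions so chosen.

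The study compared Th17 cells, the interleukin-17 producing class of helper T cells, with and without the glucose transporter GLUT3, which Slc2a3 encodes. Naive T cells from the strain C57BL/6 spent 3 days in Th17 culture and were then restimulated for 3 h with PMA and ionomycin, with brefeldin A and monensin present in both groups. The WT group is labelled wild type, with no Cre named, and the KO group was Slc2a3-fl/fl Cd4-cre, in which Cre is driven by the Cd4 promoter and so acts in T cells from the thymus on. Each group had 3 libraries, made by barcoding the nuclei of 6 samples and pooling them before precipitation. The labels do not say whether replicates came from separate mice, so the spread between libraries may be technical.

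Acetylation of histone H3 at lysines 9 and 14 marks active promoters. It is laid down by acetyltransferases that use acetyl-CoA, and it flanks the nucleosome-poor stretch at which transcription starts. Many mammalian genes are packed closely enough that 1 acetylated region serves both neighbours. The best known case is the bidirectional promoter, where 2 genes start back to back and are read in opposite directions. Such pairs are often housekeeping genes, including many for DNA repair, mitochondria and RNA processing. In other places the start of a gene lies against the end of its neighbour.

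The strand was known for 17492 of 21887 protein-coding genes, and all the relevant strands for 1746 of the regions. In 854 regions, genes on opposite strands started within 1 kb of each other. These are called head-to-head. A further 146 held opposite starts farther apart, 77 held starts on the same strand, 625 held the start of 1 gene and the end of another, and 44 held gene ends without a start. The other 616 had a gene of unknown strand. Head-to-head starts were a median of 47 bp apart, counted from the start on the minus strand to that on the plus strand, and in 288 of the 854 regions the genes overlapped.

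The regions were 370 to 7935 bp wide, with a median of 2448 bp. In 1286 of them the ends of at least 2 genes lay inside the region itself, in 692 the ends of 1 gene did, and in 384 every end lay outside but within 2 kb. Altogether 4252 genes were in reach. The ends of 3 genes were in reach of 208 regions, of 4 genes in 8 and of 5 genes in 3. Just inside the width limit were Samd4b/Gmfg at 7935 bp, Utp11/Fhl3 at 7910 bp and Hpcal4/Nt5c1a at 7892 bp. The nearest to be left out were Tfb2m/Cnst at 8015 bp, a histone cluster with H3c3, H2bc3, H2ac4 and H3c2 at 8062 bp, and Tshz1/Zadh2 at 8212 bp.

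A handful of head-to-head promoters is shown because the pairs around them fell or rose in the KO group and both starts fit in a short stretch. They were chosen after their values were seen. Letters are the plus strand, 5′ to 3′, of GRCm38.p6 from RefSeq, and capitals run from 1 gene's start to the other's. Atm/Npat (chr9:53536778-53536921), Gtf3c4/Ddx31 (chr2:28840311-28840456) and Pus7l/Irak4 (chr15:94543484-94543663) fell. Hmmr/Nudcd2 (chr11:40733414-40733695), Fam162a/Ccdc58 (chr16:36071512-36071710) and H2bc7/H2ac7 (chr13:23574158-23574431) rose. These directions are those of the best 150-bp window of the surrounding region in the authors' comparison, described below. That window need not lie in the printed stretch. Covered lengths of the regions, also given below, overlapped between the groups at Atm/Npat and H2bc7/H2ac7 and were shorter in KO at Hmmr/Nudcd2.
Atm/Npat: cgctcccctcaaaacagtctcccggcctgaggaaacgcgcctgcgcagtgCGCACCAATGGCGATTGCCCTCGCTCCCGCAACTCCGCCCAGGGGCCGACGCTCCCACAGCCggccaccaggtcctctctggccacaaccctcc
Gtf3c4/Ddx31: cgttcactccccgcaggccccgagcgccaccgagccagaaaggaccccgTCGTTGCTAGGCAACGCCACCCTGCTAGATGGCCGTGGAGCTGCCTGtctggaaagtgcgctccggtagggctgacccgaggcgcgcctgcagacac
Pus7l/Irak4: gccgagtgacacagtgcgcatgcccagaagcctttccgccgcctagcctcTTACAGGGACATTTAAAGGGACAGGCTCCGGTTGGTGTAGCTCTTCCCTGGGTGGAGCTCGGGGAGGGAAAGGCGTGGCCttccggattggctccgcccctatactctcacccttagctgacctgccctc
Hmmr/Nudcd2: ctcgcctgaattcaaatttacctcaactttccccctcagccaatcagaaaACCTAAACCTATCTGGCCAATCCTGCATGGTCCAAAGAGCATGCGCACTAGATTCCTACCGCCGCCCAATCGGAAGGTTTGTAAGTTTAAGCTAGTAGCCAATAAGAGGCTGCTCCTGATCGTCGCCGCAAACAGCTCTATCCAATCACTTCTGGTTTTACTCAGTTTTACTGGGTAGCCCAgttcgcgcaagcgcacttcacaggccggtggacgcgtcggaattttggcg
Fam162a/Ccdc58: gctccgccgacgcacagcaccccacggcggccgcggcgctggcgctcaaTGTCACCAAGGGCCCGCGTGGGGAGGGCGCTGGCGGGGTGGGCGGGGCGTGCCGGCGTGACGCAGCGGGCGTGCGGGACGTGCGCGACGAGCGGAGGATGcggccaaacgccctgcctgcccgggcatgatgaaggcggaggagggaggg
H2bc7/H2ac7: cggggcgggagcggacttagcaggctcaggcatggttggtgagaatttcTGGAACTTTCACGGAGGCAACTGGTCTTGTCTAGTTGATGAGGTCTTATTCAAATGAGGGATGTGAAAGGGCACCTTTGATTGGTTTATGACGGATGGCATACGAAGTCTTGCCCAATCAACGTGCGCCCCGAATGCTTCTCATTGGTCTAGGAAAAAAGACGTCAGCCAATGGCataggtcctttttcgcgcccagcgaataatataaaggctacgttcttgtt
In these stretches the CCAAT box (CCAAT or ATTGG), a site that NF-Y is known to bind, occurred 5 times at Hmmr/Nudcd2 and 4 times at H2bc7/H2ac7. It occurred once each at Atm/Npat and Pus7l/Irak4, and not at Gtf3c4/Ddx31 or Fam162a/Ccdc58. The letters TTTGAA or TTCAAA, the core of the cell cycle homology region found in late cell cycle promoters, occurred once at Hmmr/Nudcd2 and once at H2bc7/H2ac7. Fam162a/Ccdc58 held 30 CpG dinucleotides in 199 bases, and Pus7l/Irak4 9 in 180.

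As to the series as a whole, peak lists held 39264 to 43507 peaks per library. The mean fragment coverage recovered from the peak statistics was 3.99, 3.48 and 2.97 in the WT libraries and 1.85, 2.29 and 1.92 in the KO libraries, so every KO library was shallower. Values per library are given for replicates 1 to 3 in order. At Slc2a3 itself peaks covered 12507, 12443 and 12461 bp (WT) against 3822, 5427 and 6128 bp (KO). Of the T cell markers, 7 of 7 had peaks in all 6 libraries, as did 4 of 5 Th17 markers. Il17f, the exception, had 4285, 2714 and 3565 bp (WT) against 0, 423 and 0 bp (KO). Ms4a1, Cd79b, Pax5, Cd8a, Gzma, Ncr1, Klrb1c, Lyz2, Hba-a1, Hbb-bs and Gata1 were among the markers with no peak in any library. Summed covered length of the myeloid markers was 12891 to 14235 bp in WT and 7893 to 9662 bp in KO libraries, with peaks at 4 of 5 of them. It was 8200 to 9415 and 3100 to 8219 bp for the B cell markers, where Cd79a alone had peaks. For the CD8 and NK markers it was 2372 to 4711 and 847 to 3339 bp, and for the erythroid markers 1557 to 2071 and 0 to 1264 bp. One library, KO replicate 3, had 11 peaks on chromosome Y against 1 or 2 in the others. The part of these differences in the results was not tested. In bulk chromatin, fewer cells with a mark and less mark per cell cannot be told apart.

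Peaks in the regions between gene ends were shorter in the KO libraries. They covered a mean of 2371, 2312 and 2323 bp per region (WT) against 1984, 2061 and 1963 bp (KO). Every KO library lay under every WT library. The WT mean was 2335 ± 30.9 bp (SD, n = 3) and the KO mean 2003 ± 51.4 bp (SD, n = 3), a KO to WT ratio of 0.858. A two-sided exact permutation test over libraries gave p = 0.1, the smallest that 3 against 3 allows. Coverage was lower in the same libraries, and its part in this difference was not tested. The shortening was not particular to these regions: the ratio was 0.856 near 1 gene's ends and 0.863 with no gene end in reach.

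The same regions were also more often broken up in KO libraries. A WT library held 2 or more separate peaks in 9.82% to 10.4% of the regions, and a KO library in 15.5% to 18.3%. Regions near 1 gene's ends gave much the same, 10.8% to 11.3% (WT) and 15.5% to 18.0% (KO). The mean number of peaks was 1.115 ± 0.00593 in WT and 1.2 ± 0.0187 in KO libraries (SD, n = 3 each; two-sided exact permutation p = 0.1). In head-to-head regions the base midway between the starts lay under a peak of that region in 78.0% to 78.6% of the 854 in WT libraries and in 71.3% to 72.4% in KO libraries. Peaks of other regions were not read here, and the starts can lie up to 2 kb outside a region, so these are not shares of pairs with a covered midpoint. The groups did not overlap in either measure. Every KO library was shallower, and the part of coverage in these differences was not tested.

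Counted region by region, the covered length in every WT library exceeded that in every KO library in 953 of the 2362 regions, or 40.3%, against 34.7% of all 18887 shared narrow regions. The reverse held in 65 regions, or 2.75%, against 6.17% of the 18887. Regions near 1 gene's ends gave 38.6% and 3.68%.

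**Figure D1:**
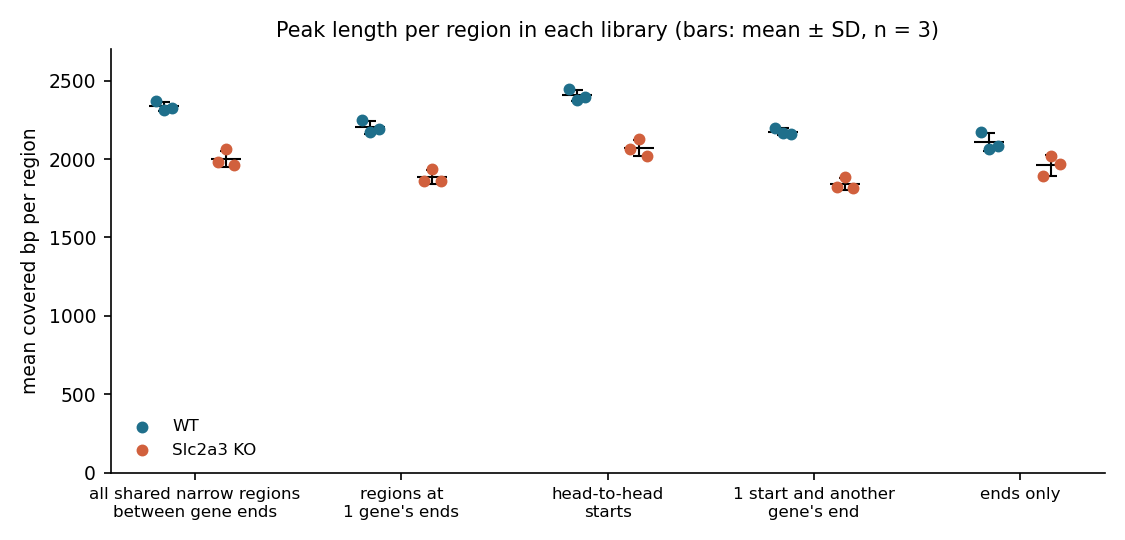
Mean covered length per region (bp, y axis from 0) in each of the 6 libraries, for 5 kinds of shared narrow region; points are libraries and bars are mean ± SD (n = 3). For all regions between gene ends the WT points sit at 2312 to 2371 bp and the KO points at 1963 to 2061 bp.

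A region between gene ends had somewhat stronger peaks than a region near 1 gene's ends. Enrichment here is the authors' peak height over background, compared only within a library. Its median was 8.68, 9.07 and 9.53 (WT) and 8.86, 8.74 and 8.95 (KO). Regions near 1 gene's ends had 8.07, 8.4 and 8.74 (WT) and 8.29, 8.03 and 8.23 (KO). The difference of log2 medians averaged 0.114 ± 0.0113 (SD over 6 libraries) and was above 0 in 6 of 6 libraries. A two-sided exact sign-flip permutation test gave p = 0.031, the smallest for 6 libraries, and 0.0402 after Benjamini-Hochberg adjustment over 9 comparisons. All 6 libraries were read at the same regions, so this p measures agreement between libraries only. The difference was 0.114 in WT and 0.113 in KO libraries (exact permutation p = 0.9). Covered length was 125 bp more per region, from 105 to 143 bp over the libraries. A longer region reaches more gene ends, so the choice itself favours length and no test is given. Median width was 2448 bp against 2214 bp near 1 gene's ends, and its part in the enrichment difference was not tested.

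Head-to-head regions carried stronger peaks than regions where a start faced the end of another gene. Their median enrichment was 9.25, 9.66 and 10.1 (WT) and 9.24, 9.27 and 9.28 (KO), against 8.11, 8.76 and 9.18 (WT) and 8.39, 8.09 and 8.39 (KO). The log2 difference of 0.159 ± 0.0262 was above 0 in 6 of 6 libraries (exact sign-flip permutation p = 0.031, adjusted 0.0402). Against all other regions of known strand it was 0.132 ± 0.0303, in 6 of 6 libraries (exact permutation p = 0.031, adjusted 0.0402), and 0.028 in the single-read peak lists (exact permutation p = 0.0625). Head-to-head regions were 81.7 bp longer than those others, but the difference was -111 bp in the single-read lists and -77.6 bp with gene ends taken within 1 kb. Beside regions where a start faced another gene's end, they were wider (median 2582 bp against 2211 bp) and had 228 bp more covered length. The part of width in these enrichment differences was not tested. The 77 regions with starts on the same strand were higher in enrichment than head-to-head regions in every library, at 10.3, 10.4 and 10.6 (WT) and 10.2, 10.6 and 9.91 (KO), and that difference was not tested. As above, the p-values for head-to-head regions measure only agreement between libraries read at the same regions.

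The 44 regions with gene ends but no start were weaker. Their median enrichment was 5.98, 6.6 and 6.41 (WT) and 6.94, 7.0 and 6.87 (KO), in each library under the head-to-head value. Enrichment here is set by each library's own background, and between genotypes it is not compared.

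Around head-to-head starts, peaks reached into both genes of the pair. They covered a mean of 1087 bp of the 3 kb upstream of a start, which runs into the neighbouring gene, and 1105 bp of the 3 kb downstream. Both starts were counted for each of the 854 regions, 1708 entries in all for 1574 genes, since a gene in reach of several regions could enter at each. For every kind of start, only peaks of the entry's own region were read. The 2 starts of a pair lie close together, so near-equal values on the 2 sides follow from the counting and are given without a test. Around the start of a gene with no neighbour in reach, peaks covered 583.9 bp upstream and 1301 bp downstream. Around a start that faced another gene's end they covered 664.8 bp upstream and 1204 bp downstream.

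**Figure D2:**
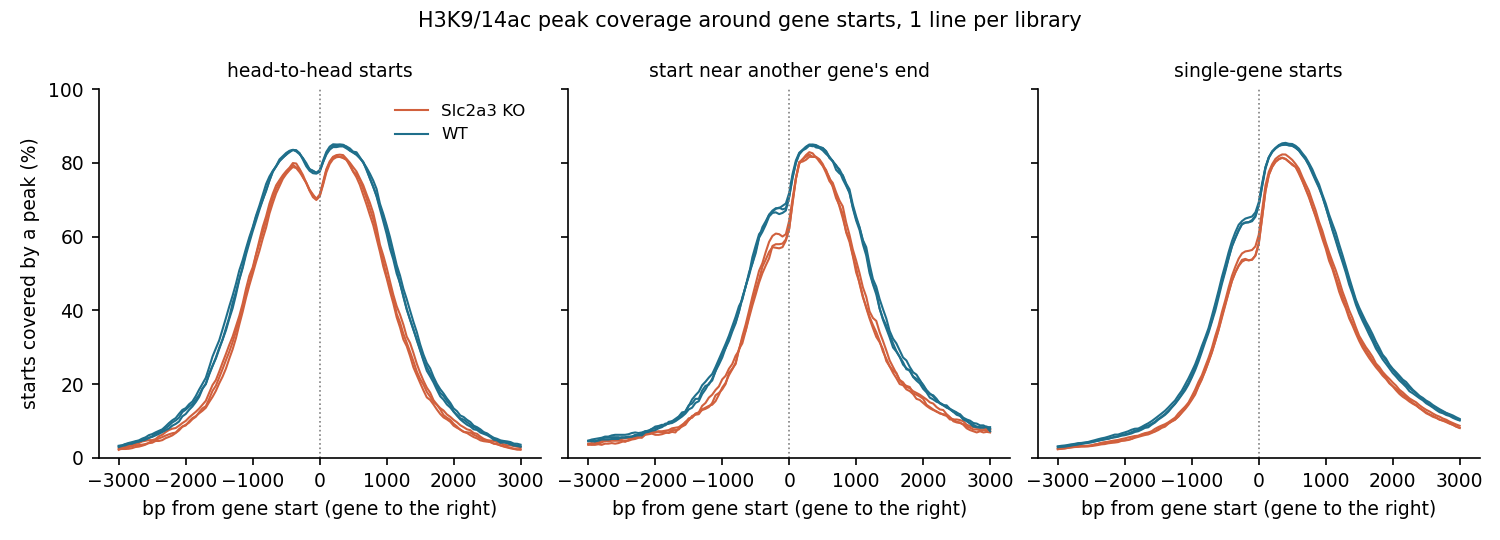
Share of gene starts covered by a peak (%, y axis) against distance from the start (bp, x axis, the gene to the right) for head-to-head starts, starts near another gene's end and lone starts; 1 line per library, WT blue and KO orange. Head-to-head starts, counted from both genes of a pair, have a shoulder on each side and a dip between, with the KO lines under the WT lines, while lone starts are covered mainly downstream (1301 against 583.9 bp).

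The place of the strongest summit was read in the 566 head-to-head regions whose genes do not overlap. It lay between the starts in 9.36% to 10.4% over the 6 libraries. The stretch between the starts is short, with a median of 47 bp and an upper quartile of 148.5 bp over all 854 regions, and its share of the covered length was not computed. Otherwise the summit lay a median of 250 to 280 bp inside a gene. The summit was in the same place in all 6 libraries in 459 regions (81.1%), 208 in the minus-strand gene, 205 in the plus-strand gene and 46 in the gap. In 10 regions the place shared by the WT libraries differed from that shared by the KO libraries. At Gamt/Dazap1 it moved from the plus-strand gene to the gap and at Vipas39/Ahsa1 from the plus-strand to the minus-strand gene.

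Head-to-head promoters were rich in CpG. Promoter windows of 300 bases were matched for 1125 head-to-head starts and had a median observed to expected CpG ratio of 0.861. The median was 0.763 at 461 starts near another gene's end, 0.781 at 3529 lone starts and 0.527 over all 12720 windows. The letters CCGGAAG or CTTCCGG, which ETS family factors are known to bind, were in 31.0% of head-to-head windows, 28.0% of windows at starts near another gene's end, 19.5% of lone windows and 11.7% of all windows. AAGATGGCG or CGCCATCTT, a YY1 sequence, was in 5.96%, 2.82%, 3.8% and 1.97% in the same order. The TATA letters TATAAA or TTTATA were in 4.89%, 7.16%, 7.88% and 15.4%. The CCAAT box was in 41.3%, 40.1%, 42.3% and 40.6%. Both strands were searched, and a match describes letters only.

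Most of the regions were called lower in the KO group. In the authors' deposited table of 150-bp windows joined into regions, 2355 of the 2362 could be located, and of these 1443 (61.3%) were lower in KO and 106 (4.5%) higher at an FDR under 0.05. Of all 40909 regions of the authors' deposited table, 46.3% were lower and 12.7% higher, so the regions between gene ends had more lower and fewer higher calls than that background. The shared narrow regions gave, in the authors' deposited table, 51.0% and 9.55%, and those near 1 gene's ends 58.7% and 5.7%. The median log2 fold change (KO over WT) in the authors' deposited table was -0.76 for the regions between gene ends (quartiles -1.02 and -0.52), -0.75 near 1 gene's ends, -0.57 away from gene ends and -0.62 over the table. Each log2 fold change of that table, here and below, is that of the best 150-bp window of a region. It is not a mean over the region.

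The scaling of that table bears on the counts. A change of at least 1 on the log2 scale was listed for 630 lower and 51 higher regions in the authors' deposited table. When its values were shifted by 0.30 to the ratio of the coverages, the median was -0.46 and these counts were 235 lower and 87 higher. The lower direction of the median held on both scales.

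**Figure D3:**
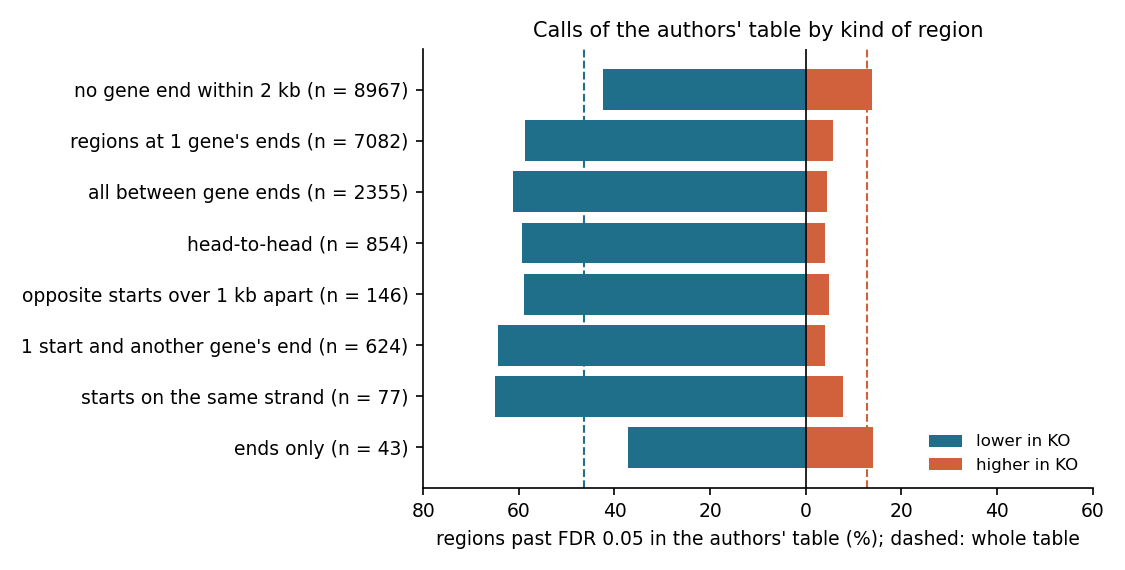
Share of located regions (%) called lower (blue, to the left) and higher (orange, to the right) in KO at an FDR under 0.05 in the authors' deposited table, by kind of region; dashed lines are the whole table at 46.3% and 12.7%. Regions between gene ends reach 61.3% lower, and the regions with gene ends only 37.2%.

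Lower calls were the majority in each layout with a gene start. Of 854 head-to-head regions the authors' deposited table called 507 lower (59.4%) and 34 higher (3.98%), with a median log2 fold change of -0.74. Where 1 start faced another gene's end, 402 of 624 were lower (64.4%) and 25 higher, with a median of -0.81, in the authors' deposited table. Of 43 located regions with gene ends only, the authors' deposited table had 16 lower (37.2%) and 6 higher (14.0%), with a median of -0.55. Regions with 3 genes in reach were lower in 70.7% (147 of 208) of cases in the authors' deposited table. These differences between layouts were not tested. Of the 47 regions on chromosome X the authors' deposited table called 29 lower (61.7%) and 1 higher. The 3 regions with 5 genes in reach went separate ways. The histone region described below rose, Tomm6/Gm20517/Usp49/Frs3/Prickle4, with a subunit of the mitochondrial import complex, was at -0.97 in the authors' deposited table (FDR 0.000238), and Spsb3/Eme2/Mrps34/Nme3/Mapk8ip3 was at -0.58 and did not pass (FDR 0.0511).

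Covered length and the deposited fold change mostly moved together but are different quantities. Of the 1443 regions called lower in the authors' deposited table, 801 (55.5%) had more covered length in every WT than in every KO library and 5 had less. Of the 106 called higher, 45 (42.5%) had more in every KO library and 2 had less.

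Calls for each gene list are read beside those for all regions between gene ends, 61.3% lower and 4.5% higher, and genes in reach beside 19.4% of all protein-coding genes. The regions of ribosomal protein genes were nearly all lower in KO. The 78 genes for cytosolic ribosomal proteins had 40 in reach of 50 regions, and 49 of the 50 were lower in the authors' deposited table, with a median log2 fold change of -1.08 (-0.78 on the coverage scale), beside -0.76 for all regions between gene ends. The genes' regions with no second gene in reach gave 40 lower and 3 higher of 43 in the authors' deposited table, with a median of -1.17. At Rpl23a, a protein of the large subunit, with its neighbour Tlcd1 (chr11:78181593-78184260), peaks covered 2416, 2668 and 2416 bp (WT) against 1369, 1922 and 1382 bp (KO). The groups did not overlap, and the log2 fold change in the authors' deposited table was -1.66 (FDR 3.88e-11). At Trappc4/Rps25/Ccdc84 (chr9:44405942-44409639), with Rps25 of the small subunit, they covered 3419, 3412 and 3698 bp (WT) against 2672, 2930 and 2672 bp (KO), again without overlap. Its log2 fold change was -1.50 in the authors' deposited table (FDR 2.17e-12). The exception, Klhl35/Rps3, named after its values were seen, held gene ends only and rose by 1.34 on the log2 scale in the authors' deposited table (FDR 1.43e-06).

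Other lists of growth-related genes lay nearer to the 61.3% of all regions between gene ends. Of 50 regions of mitochondrial ribosomal protein genes, 39 were called lower (78.0%) and 1 was called higher in the authors' deposited table, with a median of -0.77. Mrps16/Cfap70, with a protein of the small mitochondrial subunit, covered 2198, 2548 and 1966 bp (WT) against 1170, 1047 and 932 bp (KO), and its log2 fold change was -1.90 in the authors' deposited table (FDR 1.1e-12). Regions of the respiratory chain and ATP synthase were lower in 31 of 47 (66.0%, close to the 61.3% of all) and higher in 0 in the authors' deposited table. Ndufa5/Asb15, with a subunit of complex I, was at -1.76 (FDR 1.21e-11) and Atp5d/Cbarp, with a subunit of the ATP synthase, at -1.66 (FDR 9.07e-11) in the authors' deposited table. Ndufa5/Asb15 covered 2311, 2456 and 2135 bp (WT) against 1666, 1504 and 1487 bp (KO), without overlap.

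Splicing and mRNA processing genes had 40 lower (72.7%, against 61.3% of all) and 1 higher of 55 regions in the authors' deposited table. Gart/Son joins a purine synthesis enzyme to a splicing cofactor, and peaks there covered 4117, 4436 and 4278 bp (WT) against 3050, 2785 and 3152 bp (KO), with a log2 fold change of -1.83 in the authors' deposited table (FDR 6.27e-14). Cpsf3/Itgb1bp1, with the nuclease that cuts pre-mRNA before polyadenylation, covered 3152, 3026 and 3143 bp (WT) against 2232, 2253 and 2257 bp (KO) and was at -1.39 in the authors' deposited table (FDR 4.98e-11). At both pairs the groups did not overlap. Chaperones had 25 of 36 lower (69.4%) and aminoacyl-tRNA synthetases 15 of 20 (75.0%) in the authors' deposited table, with none higher. RNA polymerase, Mediator and general transcription genes had 31 of 45 lower (68.9%) in the authors' deposited table, again with none higher. Proteasome genes had 16 of 26 lower in the authors' deposited table, a share of 61.5% beside 61.3% of all. Polr1b/Chchd5, with the second largest subunit of RNA polymerase I, covered 1985, 2159 and 1985 bp (WT) against 1442, 1442 and 1252 bp (KO) and was at -2.00 in the authors' deposited table (FDR 1.34e-08). Bop1/Hsf1, with a ribosome biogenesis factor and the heat shock regulator, was at -1.51 in the authors' deposited table (FDR 1.22e-10), and its covered lengths overlapped, at 2196, 2760 and 2406 bp (WT) against 2254, 1402 and 1384 bp (KO).

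Of 35 genes of glucose uptake and glycolysis 8 were in reach of a region (22.9%), and of 56 of the acetyl-CoA and histone acetylation list 17 (30.4%), beside 19.4% of all protein-coding genes. Of 9 regions of the glucose list 5 were lower (55.6%) in the authors' deposited table, among them Iffo1/Gapdh/Ncapd2 at -1.34 (FDR 2.66e-05), where peaks covered 4007, 4023 and 4336 bp (WT) against 3172, 3112 and 3067 bp (KO). Spsb2/Tpi1, with the gene of triosephosphate isomerase, rose by 1.05 in the authors' deposited table (FDR 4.25e-05), while its covered lengths overlapped at 822, 888 and 1384 bp (WT) against 1393, 1426 and 925 bp (KO). The list of acetyl-CoA enzymes, histone acetyltransferases and deacetylases had 24 regions, with 12 called lower (50.0%, against 61.3% of all) and 1 called higher (4.17%, against 4.5%) in the authors' deposited table. Pet117/Kat14, with an acetyltransferase subunit, covered 4994, 3889 and 4206 bp (WT) against 3117, 2701 and 2311 bp (KO) and was at -1.12 in the authors' deposited table (FDR 3.86e-06). Hdac3/Rell2/Fchsd1, with a histone deacetylase, covered 2245, 2073 and 2213 bp (WT) against 1976, 1648 and 1233 bp (KO) and was at -1.15 in the authors' deposited table (FDR 4.97e-05). In both the KO values lay under the WT values.

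**Figure D4:**
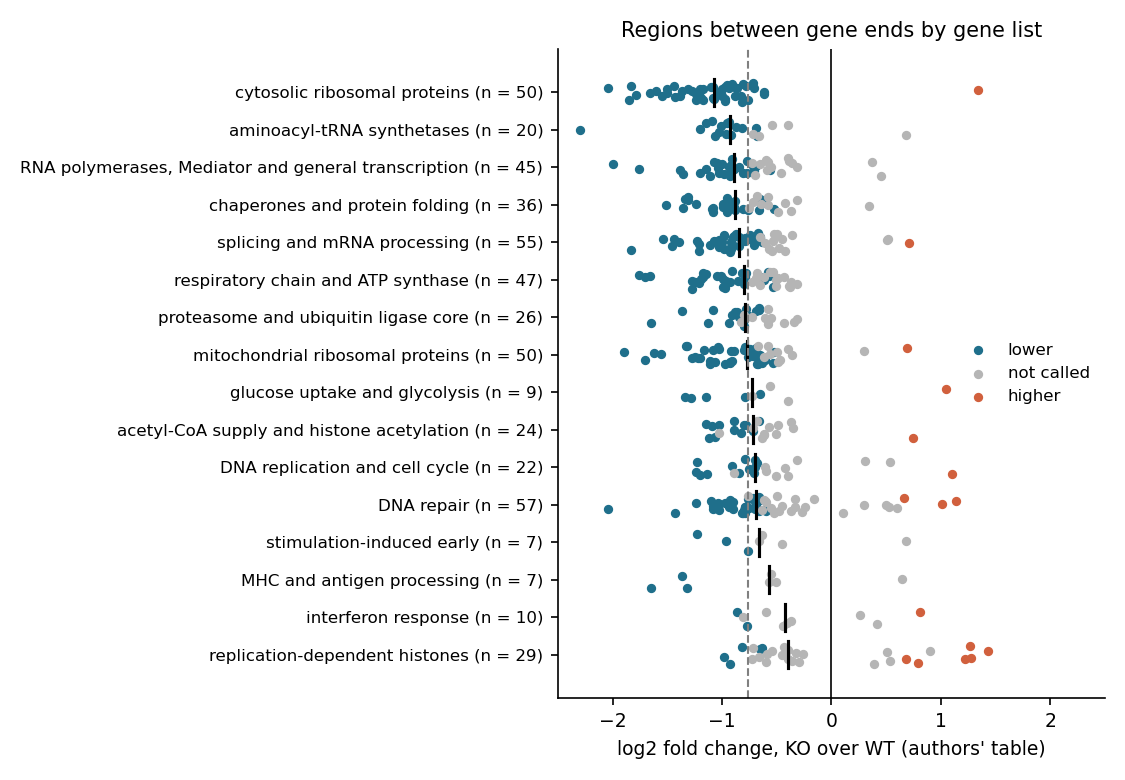
Log2 fold change (KO over WT, x axis) of each located region in the authors' deposited table, grouped by gene list (y axis; n regions); blue is lower, orange higher and grey neither at an FDR under 0.05, ticks are list medians and the dashed line is the median of all, -0.76. Cytosolic ribosomal protein regions lie left of 0 except 1, and histone regions spread to both sides.

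Histone genes had both lower and higher calls. The replication-dependent histones, which supply chromatin in S phase and lie in dense clusters, had 5 lower (17.2%, against 61.3% of all), 6 higher (20.7%, against 4.5%) and 18 uncalled of 29 regions in the authors' deposited table, with a median of -0.40 (-0.10 on the coverage scale). At H1f5/H3c11/H2ac22 peaks covered 1920, 1805 and 2030 bp (WT) against 2611, 3091 and 2170 bp (KO) without overlap, and it rose by 1.28 in the authors' deposited table (FDR 3.3e-08). The region of H2ac8, H2bc8, H2bc7, H2ac7 and H3c4, whose H2bc7/H2ac7 promoter is printed above, rose by 1.43 in the authors' deposited table (FDR 5.37e-08). Of its 28 windows, 12 went up and 1 went down. Its covered lengths overlapped, at 4360, 4290 and 3585 bp (WT) against 4076, 3512 and 4104 bp (KO). H4c1/H3c1/H1f1, also named after its values were seen, was lower at -0.98 in the authors' deposited table (FDR 0.00689). Histone genes are near-identical copies, so how reads were split among them is uncertain.

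The DNA repair and replication lists had calls near the shares of all regions between gene ends. Of 57 DNA repair regions the authors' deposited table called 33 lower (57.9%) and 3 higher (5.26%), against 61.3% and 4.5%. Ercc1/Cd3eap/Ppp1r13l, with a nuclease subunit of nucleotide excision repair, covered 1623, 1966 and 2011 bp (WT) against 979, 930 and 620 bp (KO) and was at -1.43 in the authors' deposited table (FDR 4.04e-08). Xpc, a damage sensor of the same pathway named after its values were seen, shared a region with Tmem43 that rose by 1.14 in the authors' deposited table (FDR 0.00444). Another region near the same gene, Xpc/Lsm3, went the other way, at -0.76 in the authors' deposited table (FDR 0.00995). DNA replication and cell cycle genes had 12 lower (54.5%) and 1 higher (4.55%) of 22 in the authors' deposited table. Cops6/Mcm7, with a subunit of the replicative helicase, was lower at -1.14 (FDR 5.4e-06), and 1 of 2 Ccna2/Bbs7 regions, with cyclin A2, higher at 1.10 (FDR 1.33e-05), both in the authors' deposited table. The covered lengths of that Ccna2/Bbs7 region did not separate, at 1645, 1600 and 1208 bp (WT) against 1679, 1645 and 1637 bp (KO). The other Ccna2/Bbs7 region was at -0.89 and did not pass in the authors' deposited table (FDR 0.0533).

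Of the immune lists, interferon response genes were in reach in 9 of 37 cases (24.3%), antigen processing genes in 7 of 28 (25.0%), stimulation-induced early genes in 7 of 43 (16.3%) and T cell genes in 5 of 45 (11.1%), beside 19.4% of all protein-coding genes. No region had a gene of the Th17 list in reach, nor any gene of the B cell, myeloid and erythroid lists. Of 5 regions of the T cell list the authors' deposited table had 3 lower (61.3% of all regions between gene ends were lower), including Lat/Spns1 at -1.16 (FDR 1.48e-06), where Lat is the adaptor of the T cell receptor. Peaks there covered 3648, 4184 and 4395 bp (WT) against 2918, 3581 and 3297 bp (KO), and all KO values lay under the WT values. Of 10 interferon response regions 2 fell and 1 rose in the authors' deposited table, and of 7 regions of antigen processing genes 3 were lower. Rnf31/Irf9, with a subunit of the interferon-activated factor ISGF3, was at -0.86 and Gbp2b/Gbp2, with interferon-induced GTPases, at 0.81 in the authors' deposited table (FDR 0.00141 and 0.000434). Psmb10/Lcat, with a subunit of the immunoproteasome, was at -1.65 in the authors' deposited table (FDR 1.67e-07). Of 7 stimulation-induced early gene regions 3 were lower, with Tyrobp/Hcst/Nfkbid at -1.23 (FDR 1.18e-08), in the authors' deposited table. The CD8 and NK cell list had 2 regions, Lim2/Nkg7 at -0.88 and Klre1/Klrd1 at -0.75 in the authors' deposited table (FDR 0.037 and 0.0658).

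Textbook neighbours were represented by 28 of 55 listed pairs in 29 regions, of which the authors' deposited table called 23 lower (79.3%, against 61.3% of all), 0 higher (against 4.5% of all) and 6 neither. The pairs were chosen with earlier results of these data known. The chaperonin pair Hspe1/Hspd1, whose genes overlap at their starts (gap -95 bp), covered 3707, 3684 and 3680 bp (WT) against 3454, 2862 and 3039 bp (KO), and fell by 1.08 in the authors' deposited table (FDR 2.84e-06). Atm/Npat joins the kinase of the DNA double-strand break response to a histone gene activator. It covered 3811, 2887 and 3132 bp (WT) against 2646, 3231 and 1789 bp (KO), so the groups overlapped, and its log2 fold change was -1.08 in the authors' deposited table (FDR 6.24e-05). Brca1/Nbr1, with a breast cancer susceptibility gene of DNA repair, also overlapped, at 2617, 2977 and 2949 bp (WT) against 2688, 3449 and 2506 bp (KO), and was at -0.90 in the authors' deposited table (FDR 0.00996). Wrap53/Trp53, with the tumour suppressor p53 and its antisense neighbour, was at -0.70 in the authors' deposited table (FDR 0.00616). The purine pair Paics/Ppat fell by 1.23 in the authors' deposited table (FDR 5.65e-05). The signal transducers Stat5b and Stat5a, whose starts lie 347 bp apart, had 3844, 4796 and 4703 bp (WT) against 2872, 2721 and 3131 bp (KO), without overlap, and -1.58 in the authors' deposited table (FDR 1.45e-06). Psmb9/Tap1, an immunoproteasome subunit and a peptide transporter, was at -0.55 and did not pass in the authors' deposited table (FDR 0.249). Sdhd/Timm8b/Nkapd1 was at -0.49 and Mrps12/Sars2 at -0.40 in the authors' deposited table, and neither passed (FDR 0.181 and 0.157). The other 3 without a call were Agrn/Isg15, Ndufs3/Kbtbd4 and Tmem258/Fen1.

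The lowest region of all was Klk9/Klk8, between 2 kallikrein protease genes (chr7:43796057-43799094). Peaks there covered 1984, 2448 and 3038 bp (WT) against 274, 1156 and 1154 bp (KO), and the log2 fold change was -3.11 in the authors' deposited table (FDR 3.16e-27). Pik3r5/Pik3r6, the regulatory subunits of phosphoinositide 3-kinase gamma (chr11:68496512-68501050), covered 4243, 3295 and 3624 bp (WT) against 683, 1176 and 986 bp (KO), with -2.67 in the authors' deposited table (FDR 5.18e-30). Every KO value at both was under every WT value. Among the next were Nepro/Gtpbp8, covered for 3972, 4285 and 3918 bp (WT) against 2036, 2646 and 2451 bp (KO), at -2.63, Apoa5/Zpr1 at -2.32 and Slc44a4/Neu1, with a lysosomal sialidase, at -2.22 in the authors' deposited table. The pair Pus7l/Irak4, with a kinase of interleukin-1 and Toll-like receptor signalling, was at -2.11 in the authors' deposited table (FDR 6.19e-17), and covered 2545, 1507 and 2004 bp (WT) against 1130, 1213 and 1146 bp (KO). Gtf3c4/Ddx31, with a subunit of the RNA polymerase III factor TFIIIC, was at -1.38 in the authors' deposited table (FDR 2.57e-07), with 2465, 2818 and 2818 bp (WT) against 2322, 2331 and 2368 bp (KO).

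The highest region was Pimreg/Aipl1 (chr11:72039704-72043174), where Pimreg is a mitosis-associated gene. It covered 739, 625 and 735 bp (WT) against 3471, 2297 and 1925 bp (KO), and rose by 2.5 in the authors' deposited table (FDR 1.72e-08). Prss53/Vkorc1, with the vitamin K epoxide reductase, rose by 1.93 in the authors' deposited table (FDR 2.14e-10), with 709, 1205 and 1714 bp (WT) against 2812, 3368 and 2814 bp (KO). Il1rl1/Il18r1, the receptors for interleukin-33 and interleukin-18 (chr1:40465671-40471441), covered 2678, 3605 and 791 bp (WT) against 4808, 5427 and 5447 bp (KO). It rose by 1.78 in the authors' deposited table (FDR 5.84e-12). Stimate/Mustn1 covered 567, 513 and 681 bp (WT) against 2457, 2618 and 2493 bp (KO) and rose by 1.69 in the authors' deposited table (FDR 4.9e-08). At all 4 the groups did not overlap. Each of the 4 met 2 or more regions of the authors' deposited table, and its value is from the one with the lowest FDR. That one held 2 windows of 150 bp at Pimreg/Aipl1 and 4 at Il1rl1/Il18r1, so these values cover a small part of the region.

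Several of the regions that rose hold genes known for cell division. Vps33b/Prc1/Rccd1, with a crosslinker of the central spindle, rose by 1.62 and Zbtb41/Aspm, with a spindle pole protein, by 1.61 in the authors' deposited table (FDR 8.28e-10 and 2.9e-09). Vps33b/Prc1/Rccd1 covered 1972, 1226 and 1187 bp (WT) against 2570, 2374 and 2802 bp (KO), and Zbtb41/Aspm 1027, 730 and 1655 bp and 2425, 2237 and 1959 bp. Named after their values were seen, Hmmr/Nudcd2, Yme1l1/Mastl, Nusap1/Oip5 and Ndc80/Spdya, with genes for the spindle, mitotic entry and the kinetochore, rose by 1.32, 1.25, 1.22 and 1.07 in the authors' deposited table (FDR 3.52e-10, 6.63e-08, 5.9e-06 and 0.00222). Hmmr/Nudcd2 shows that length and fold change can part: it rose in the table, yet covered 3082, 2981 and 2588 bp (WT) against a shorter 2437, 2263 and 1947 bp (KO). Lengths overlapped at Yme1l1/Mastl, with 3003, 2319 and 2005 bp (WT) against 2733, 2609 and 2529 bp (KO). They also overlapped at Nusap1/Oip5, with 2227, 1847 and 1523 bp (WT) against 2383, 2416 and 1955 bp (KO). Ndc80/Spdya covered 1928, 1867 and 1977 bp (WT) against a longer 2569, 2413 and 2201 bp (KO). Fam162a/Ccdc58 covered 4626, 4553 and 4964 bp (WT) against 6396, 6740 and 6406 bp (KO) and rose by 1.58 in the authors' deposited table (FDR 1.05e-09). Other regions with genes of cell division were lower in the authors' deposited table. Among them were Rplp1/Kif23 at -1.83 (FDR 3.19e-10), Mrpl57/Ska3 at -1.08 (FDR 0.000205), Cstf1/Aurka at -0.70 (FDR 0.0419) and Ncapd2/Mrpl51 at -0.70 (FDR 0.00365). No list of mitotic genes was tested, so all of these are named regions and not a group result.

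**Figure D5:**
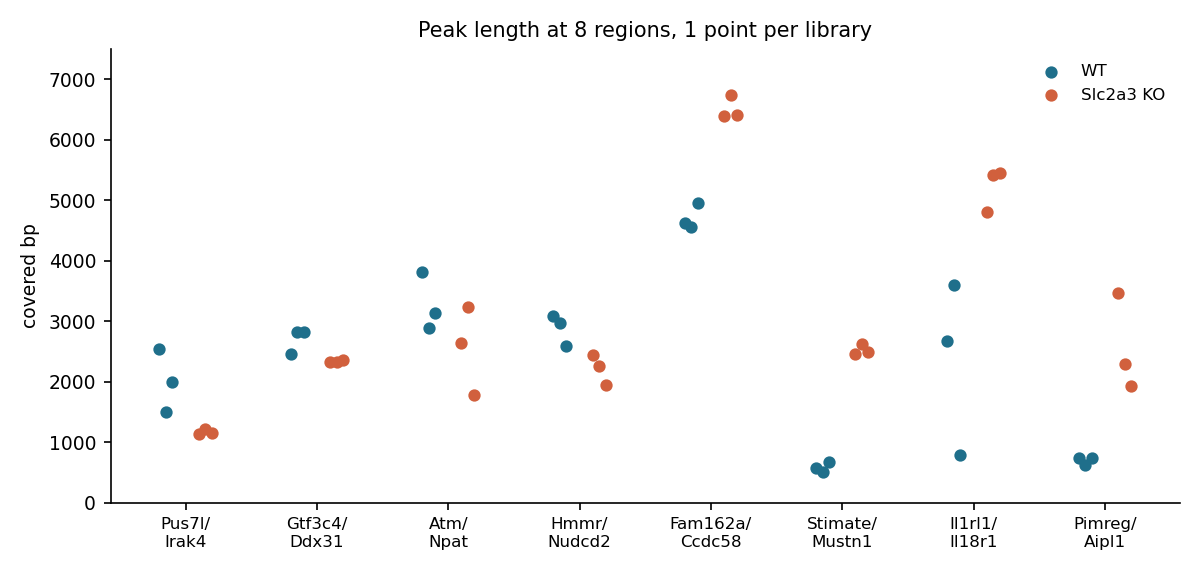
Covered length (bp, y axis from 0) at 8 regions in each library, WT blue and KO orange, 1 point per library. Pimreg/Aipl1, Il1rl1/Il18r1, Stimate/Mustn1 and Fam162a/Ccdc58 have all KO points above the WT points, Pus7l/Irak4, Gtf3c4/Ddx31 and Hmmr/Nudcd2 all KO points under them, and the Atm/Npat points overlap.

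The promoter letters were set beside the calls for the 436 head-to-head regions with both windows. Of 62 regions with TTTGAA or TTCAAA in a window, 7 (11.3%) were higher in the authors' deposited table, and of 374 without it 8 (2.14%). With a CCAAT box 12 of 234 were higher (5.13%) and without it 3 of 202 (1.49%), in the authors' deposited table. With the YY1 sequence 31 of 38 were lower (81.6%, median -0.88) and 0 higher in the authors' deposited table, and without it 234 of 398 (58.8%, median -0.73). Other letters gave similar gaps in the authors' deposited table: with the E-box CACGTG 76.0% were lower and without it 57.6%, with the NRF1 sequence GCATGCGC 77.8% and 59.2%, and with the CRE sequence TGACGTCA 17 of 23 and 248 of 413. With TATAAA or TTTATA 10.0% were higher and without it 2.78%, in the authors' deposited table. With the SP/KLF sequence GGGCGG 57.6% were lower and without it 71.9%, and with the ETS letters 61.3% and 60.4%, in the authors' deposited table. The 2 windows of a pair can overlap, 9 motifs were searched, and these counts are descriptions without a test.

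Closest to the median were Kri1/Cdkn2d and 1 of 2 regions each of Fam76b/Cep57 and Sbds/Tyw1, at -0.76 in the authors' deposited table. That table counted 1 of 32 windows at Kri1/Cdkn2d as going down. At Kri1/Cdkn2d the covered lengths hardly differed, at 4682, 4727 and 4713 bp (WT) against 4713, 4668 and 4733 bp (KO), and overlapped. At that Sbds/Tyw1 region, with the gene of a ribosome maturation factor, they were 1017, 1655 and 1655 bp (WT) against 878, 378 and 378 bp (KO) and did not overlap.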

How the data were processed

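H3K9/14ac was profiled by RELACS ChIP-seq in 3 WT and 3 KO libraries; the matching inputs were not analysed here. Per the submitters' processing notes, reads came from bcl2fastq 2.20.0.422, and the authors used MACS2 2.2.6, Bowtie2 2.3.5.1 and cutadapt 2.8, with deepTools 3.3.2, on GRCm38. The deposited peak lists, called per library on paired ends (single-read lists served as an alternative), hold a score, a fold enrichment ratio, −log10 p and −log10 q per peak. The authors' deposited comparison table holds window counts, the best window's log2 fold change, p-values and FDR; the sources used here name neither its program nor its scaling, so its FDR was used as listed. Of its 40909 regions 24128 were placed by the authors' FDR list, 16571 by rebuilding 150-bp windows from the single-read peaks (98.8% of listed spans were rebuilt exactly) and 208 by their best window; 2 were not located. A region overlapping several table regions (382) took the lowest FDR, so its call count is favoured.

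Regions, gene ends (RefSeq GRCm38.p6, 21887 protein-coding genes), covered lengths and tests were computed in Python 3.11.15 with numpy 2.4.6, pandas 2.3.3 and scipy 1.17.1, and checked on simulated data. Fragments over each summit were recovered from fold and p for 97.8% to 99.4% of peaks. Mean coverage ran from 1.85 to 3.99. WT and KO were compared by exact permutation over libraries, kinds of region by exact sign flips over 6 libraries. Lists (22, with 1099 of 1104 entries matched) and members were chosen with earlier results of these data known. Named regions were up to 2 per list by lowest FDR, the 6 lowest and 6 highest called, textbook pairs, those with most genes, those at the width limit and the median, of which a few are not reported here; the alternatives are in the closing section.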

Additional observations from a re-analysis of the deposited data

How the results depend on the processing

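The alternatives were single-read lists, only peaks whose −log10 q reached 5, the same number of strongest peaks per library, gene ends within 1 kb, a width under 4000 bp, joining peaks up to 150 bp apart, another match to the authors' deposited table, an FDR of 0.01, another scaling, and leaving out each library. Head-to-head regions against the others of known strand reversed in length, to -111 bp in single-read lists and -77.6 bp with gene ends within 1 kb, and their log2 enrichment difference became 0.028 in single-read lists, past no threshold; the cause was not tested. The count of higher regions was 69 with a width under 4000 bp, where fewer regions (2009) are left. It was 73 of 2136 located regions when the match was the table region with most overlap, at least 50%. With a change of at least 1 required, lower counts were 630 on the deposited scale and 235 on the coverage scale, and higher counts 51 on the deposited scale. Leaving out each library in turn gave -363 to -311 bp and 0.0767 to 0.0949 peaks per region for KO against WT. For regions between gene ends against those near 1 gene's ends it gave 123 to 140 bp and 0.115 to 0.128. For head-to-head regions against the others it gave 51.6 to 97.1 bp and 0.119 to 0.145, and 5 libraries cannot give p under 0.0625. The regions kept in these runs held 1440 to 1459 lower and 102 to 107 higher calls, with a median of -0.76. Only the choice of regions changed there, because the calls and fold changes of the authors' deposited table rest on all 6 libraries. These counts and the median therefore show nothing of how stable the calls are.

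Chosen after seeing the data, the ribosomal protein and histone counts were repeated under each choice of regions: ribosomal lower calls were 49 or 50 without any 1 library, and histone lower calls were 8 in single-read lists and 1 with a width under 4000 bp. Replicate numbers did not pair the samples (correlation of same-numbered deviations -0.024 to 0.001), and with a replicate block, which cannot pass 0.05 and so shows nothing of stability, the differences were -333 bp and 0.0851 peaks (exact sign-flip permutation p = 0.25, the smallest for 3 pairs). The shallower KO libraries limit what can be said of length, and the authors' deposited table gives no values per library, so its calls could not be repeated without any 1 of them.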
